A study of Mus musculus with 9 samples.

Results

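Pla2g1b is the mouse gene for pancreatic phospholipase A2. It was 1 of 23235 gene symbols listed with an expression value in 9 RNA sequencing libraries of whole pancreas from e15.5 embryos. It was chosen by its own FPKM, which had already been seen to differ widely between these libraries, so its values, and those of Nkx2-2, Sst, Cpa1 and Cel that it is set against, are descriptions without a test. The libraries comprised 3 labelled Blinc1-KO (genotype Blinc1-/-), 3 labelled Blinc1-Het (Blinc1+/-) and 3 labelled WT, all on a mixed C57BL/6 and 129Sv background, with no treatment. Blinc1 is a long noncoding RNA gene located near Nkx2-2, the gene of a homeodomain factor of endocrine cell differentiation, and the labels do not describe the knockout allele. They also do not say whether replicates came from separate embryos, so errors and p-values measure the spread between these libraries. Levels are FPKM, fragment numbers scaled by gene length and library depth, and the deposited confidence bounds cover counting error within a library only.

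Pancreatic phospholipase A2 is made by acinar cells, stored in zymogen granules as an inactive precursor and secreted in pancreatic juice. Trypsin activates it in the gut, where it cleaves dietary phospholipids into free fatty acids and lysophospholipids. It acts beside carboxyl ester lipase (Cel), pancreatic lipase (Pnlip) and colipase (Clps), the lipase cofactor, and it can bind the phospholipase A2 receptor Pla2r1. Acinar enzyme genes are known targets of PTF1, a complex that contains Ptf1a and Rbpj or Rbpjl, and of the nuclear receptor Nr5a2.

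Blinc1 was not listed under that name, so the genotype labels could not be checked against the targeted transcript. The library labelled Blinc1-KO replicate 1 stood apart from the other 2 Blinc1-KO libraries, and the library labelled Blinc1-Het replicate 1 from the other 2 Blinc1-Het libraries, in Pla2g1b, Nkx2-2 and Sst. In these genes Blinc1-KO replicate 1 lay within or just beyond the WT range, and Blinc1-Het replicate 1 lay close to Blinc1-KO replicates 2 and 3. Against Blinc1-Het replicates 2 and 3, Blinc1-KO replicate 1 was lower in Pla2g1b (1.81 against 8.29 and 5.66 FPKM). It was also lower than them in Sst (151 against 201 and 174 FPKM) and higher in Nkx2-2 (24.9 against 19.0 and 13.4 FPKM). These genes were chosen with earlier results of these data known. Over all genes tested, the deviations of Blinc1-KO replicate 1 and Blinc1-Het replicate 1 from their group means correlated at 0.29. The matching value was 0.275 for replicate 2 and 0.047 for replicate 3 of the same 2 groups. Whether the labels of Blinc1-KO replicate 1 and Blinc1-Het replicate 1 were exchanged was not tested and could not be checked. Each genotype mean and difference rests on the labels as deposited. The Pla2g1b differences and the counts over all genes are also given without libraries. So are the recomputed named genes that moved by over 1.5 times, but not every named gene was recomputed. The libraries held between 19523066 and 25426555 implied mapped fragments, and the deepest was Blinc1-KO replicate 1. Xist, the transcript of the inactive X chromosome, was above 1 FPKM in 3 of 3 Blinc1-KO, 1 of 3 Blinc1-Het and 1 of 3 WT libraries. Of the markers of neighbouring gut tissues, 6 of 9 stomach markers were under 1 FPKM in every library, with Muc5ac and Atp4b at 0, and 6 of 8 intestine markers were under 1 FPKM, with Sis at 0. The summed stomach markers ranged over 35.6 to 44.5 FPKM in Blinc1-KO, 31.9 to 52.6 FPKM in Blinc1-Het and 33.9 to 47.1 FPKM in WT libraries. Blood cell markers were present in all libraries: the 4 erythroid markers summed to 5052 to 7022 FPKM in Blinc1-KO, 2580 to 5447 FPKM in Blinc1-Het and 4762 to 6963 FPKM in WT, and the 4 leukocyte markers to 149.7 to 168 FPKM in Blinc1-KO, 159.7 to 202 FPKM in Blinc1-Het and 168 to 189 FPKM in WT. The liver markers summed to 36.8 to 62.1 FPKM in Blinc1-KO and 37.7 to 44.9 FPKM in Blinc1-Het libraries, and in WT to 113 FPKM in replicate 2, against 37.8 and 40.4 FPKM in replicates 1 and 3. The part of these tissues in the results was not tested.

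The deposited coordinates of Pla2g1b were chr5:115916275-115924726 on mm9, plus strand. GENCODE lists 4 transcripts of this protein-coding gene, and no other annotated gene overlaps it. The 250 bases before its deposited start are given beside those of 2 other acinar enzyme genes, Cela1 (elastase 1), the digestive enzyme gene whose library profile came closest to that of Pla2g1b, and Cpa1 (carboxypeptidase A1). They were read from the mm9 genome sequence and run 5′ to 3′ on the gene's strand. The Pla2g1b window is chr5:115916025-115916274 (plus), the Cela1 window chr15:100518352-100518601 (minus) and the Cpa1 window chr6:30588971-30589220 (plus). Capitals mark letters that match, on either strand, CANNTG (the E-box that PTF1 can bind), TTTCCC (its TC-box), AAGGTCA (an NR5A2 site), AAGTG (the NKX2-2 core) or TATAAA, a core promoter element.
Pla2g1b: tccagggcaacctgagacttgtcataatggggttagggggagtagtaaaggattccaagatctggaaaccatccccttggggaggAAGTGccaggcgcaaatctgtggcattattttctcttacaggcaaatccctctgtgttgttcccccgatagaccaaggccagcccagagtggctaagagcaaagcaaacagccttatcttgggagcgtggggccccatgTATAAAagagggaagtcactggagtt
Cela1: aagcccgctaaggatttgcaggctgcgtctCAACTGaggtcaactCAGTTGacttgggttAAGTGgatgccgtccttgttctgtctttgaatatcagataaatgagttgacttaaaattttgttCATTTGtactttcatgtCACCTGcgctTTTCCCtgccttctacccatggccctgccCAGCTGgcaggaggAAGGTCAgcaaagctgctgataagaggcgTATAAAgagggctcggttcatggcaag
Cpa1: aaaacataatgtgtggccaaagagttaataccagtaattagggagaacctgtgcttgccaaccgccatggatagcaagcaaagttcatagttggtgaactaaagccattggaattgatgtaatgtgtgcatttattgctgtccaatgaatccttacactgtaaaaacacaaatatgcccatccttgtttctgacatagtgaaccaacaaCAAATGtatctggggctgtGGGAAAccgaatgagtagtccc

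The Pla2g1b window held no CANNTG, no TTTCCC and no AAGGTCA. It held the NKX2-2 core 1 time, first base 165 bases before the deposited start, and the core promoter element 1 time, at 26 bases. The RefSeq start lies 124 bases further upstream, and the joined 374-base window gave the same 5 counts. The Cela1 window held all of these motifs, the E-box 5 times and each of the others 1 time. The Cpa1 window held the E-box 1 time and the TC-box 1 time, on the opposite strand. Over the matching 250 bases of all 32851 promoters in the RefSeq table, 66.2% held CANNTG, 21.9% held TTTCCC, 4.1% held AAGGTCA, 40.7% held AAGTG and 12.4% held TATAAA. A window with neither CANNTG nor TTTCCC was found for 26.1% of these promoters. Of the 26 of 32 listed digestive enzyme genes with a RefSeq promoter, 3 (Amy1, Pnlip and Rnase1) held neither. These matches describe letters in a window, and binding was not measured.

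Pla2g1b was at 1.81, 162 and 130 FPKM in Blinc1-KO replicates 1, 2 and 3, at 122, 8.29 and 5.66 FPKM in Blinc1-Het replicates 1, 2 and 3, and at 5.54, 2.35 and 3.09 FPKM in WT replicates 1, 2 and 3. The levels thus fell into 3 high libraries, 2 labelled Blinc1-KO and 1 labelled Blinc1-Het, and 6 low ones. Blinc1-KO held both the highest and the lowest library of the series, which differed 89.5-fold, and its range enclosed all WT and all Blinc1-Het libraries. The deposited bounds were 154 to 170 FPKM in Blinc1-KO replicate 2 and 0.933 to 2.69 FPKM in Blinc1-KO replicate 1. By those bounds the libraries rest on about 1542 and 17 fragments of the gene, so that the high levels are precise and the order of the lowest ones is not. In whole pancreas, more cells of a type and more RNA per cell cannot be told apart.

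**Figure D1:**
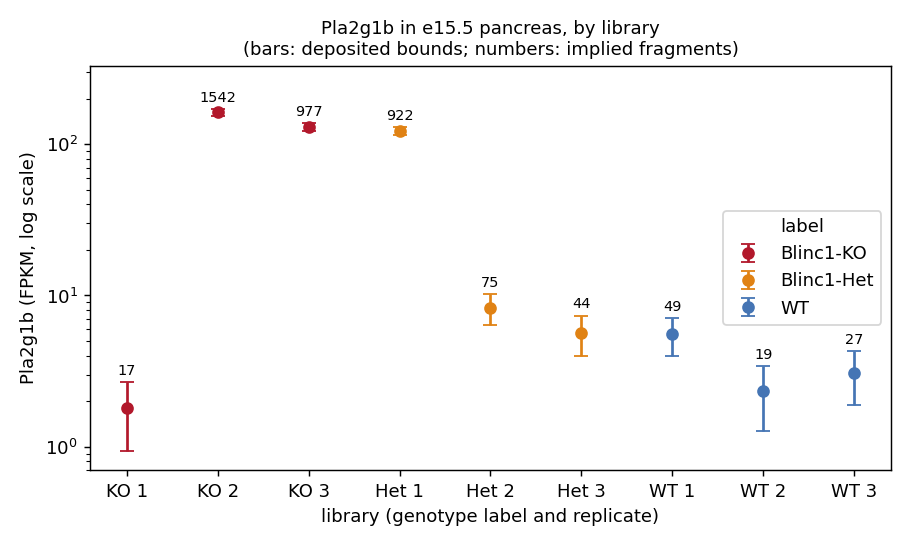
Pla2g1b FPKM on a log scale (y axis) in each of the 9 libraries (x axis), coloured by genotype label; bars are the deposited bounds and the numbers are the fragments these bounds imply. Blinc1-KO replicates 2 and 3 and Blinc1-Het replicate 1 lie between 122 and 162 FPKM, and the other 6 libraries between 1.81 and 8.29 FPKM.

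From the highest level down, the order was Blinc1-KO replicates 2 and 3, Blinc1-Het replicates 1, 2 and 3, WT replicates 1, 3 and 2, and Blinc1-KO replicate 1. Among these neighbours the bounds failed to overlap for only 2 of 8 pairs. Blinc1-KO replicate 2 was 1.25-fold above Blinc1-KO replicate 3, and Blinc1-Het replicate 1 was 14.7-fold above Blinc1-Het replicate 2. Blinc1-KO replicate 3 was 1.06-fold above Blinc1-Het replicate 1, within their bounds. Below the gap each library overlapped its neighbours, and the largest step there was 1.79-fold, between WT replicates 1 and 3.

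By label, Pla2g1b averaged 97.9 ± 84.8 FPKM in Blinc1-KO, 45.4 ± 66.6 FPKM in Blinc1-Het and 3.66 ± 1.67 FPKM in WT libraries (SD, n = 3 each). The SD was close to the mean in Blinc1-KO and above it in Blinc1-Het. On the log2(FPKM + 1) scale, which understates changes of low genes, the difference was 3.13 (SE 1.53) for Blinc1-KO minus WT, 2.14 (SE 1.53) for Blinc1-Het minus WT and 0.99 (SE 1.53) for Blinc1-KO minus Blinc1-Het. The first 2 differences share the WT libraries. A test of 3 against 3 libraries by exact permutation could not give a p below 0.1.

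These averages depended on which libraries entered. Without Blinc1-KO replicate 1, Blinc1-KO minus WT was 5.03 (SE 1.04), and without Blinc1-KO replicate 2 it was 2.10. Without Blinc1-Het replicate 1, Blinc1-Het minus WT was 0.82. The difference of Blinc1-KO minus Blinc1-Het was -0.04 without Blinc1-KO replicate 2. Without both Blinc1-KO replicate 1 and Blinc1-Het replicate 1 it was 4.21 (SE 0.29). Those 2 libraries were picked out by their Pla2g1b, Nkx2-2 and Sst values, so the larger difference and small SE follow from that choice. The same difference was 2.89 without Blinc1-KO replicate 1, 0.12 without Blinc1-KO replicate 3, and 2.32, 0.45 and 0.21 without Blinc1-Het replicates 1, 2 and 3. With sex, read from Xist, as a term, Blinc1-KO minus WT was 3.98. All Blinc1-KO libraries were female, and the 3 high libraries were 2 females and 1 male, so each sex was found at both ends of the range.

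Nkx2-2 ran against Pla2g1b across the libraries. It was at 24.9, 6.08 and 5.48 FPKM in Blinc1-KO replicates 1 to 3, at 6.37, 19.0 and 13.4 FPKM in Blinc1-Het replicates 1 to 3, and at 15.2, 21.7 and 25.5 FPKM in WT replicates 1 to 3. The 3 libraries highest in Pla2g1b were the 3 lowest in Nkx2-2, and the 3 lowest in Pla2g1b (Blinc1-KO replicate 1 and WT replicates 2 and 3) were the 3 highest in Nkx2-2. By label, Nkx2-2 averaged 12.2 ± 11.1 FPKM in Blinc1-KO, 12.9 ± 6.32 FPKM in Blinc1-Het and 20.8 ± 5.18 FPKM in WT libraries (SD, n = 3 each), and the groups overlapped. The libraries fall into separate clusters, so no correlation coefficient is given.

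Sst, the gene of somatostatin, the delta cell hormone, ran with Pla2g1b at its upper end. It was at 151, 422 and 455 FPKM in Blinc1-KO replicates 1 to 3, at 375, 201 and 174 FPKM in Blinc1-Het replicates 1 to 3, and at 152, 155 and 191 FPKM in WT replicates 1 to 3. The same 3 libraries were highest in both genes, with Blinc1-KO replicate 3 first in Sst. Among the other 6 libraries Sst spanned 151 to 201 FPKM. Its highest and lowest libraries differed 3.01-fold, against 89.5-fold for Pla2g1b.

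Cpa1, an acinar enzyme gene that also marks early pancreatic tip cells, did not show the split. It was at 7457, 11632 and 9157 FPKM in Blinc1-KO replicates 1 to 3, at 9462, 9947 and 9155 FPKM in Blinc1-Het replicates 1 to 3, and at 8604, 8226 and 7898 FPKM in WT replicates 1 to 3, a 1.56-fold range. Its 3 lowest libraries were the 3 lowest in Pla2g1b, while Blinc1-Het replicate 2, low in Pla2g1b, was second in Cpa1. Cel was at 1799, 2385 and 1859 FPKM in Blinc1-KO replicates 1 to 3, at 1799.6, 2249 and 1880 FPKM in Blinc1-Het replicates 1 to 3, and at 1610, 1974 and 1871 FPKM in WT replicates 1 to 3, a 1.48-fold range.

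Set against these acinar transcripts, Pla2g1b kept its split. As a percentage of Cpa1 FPKM it was 0.0243%, 1.39% and 1.42% in Blinc1-KO replicates 1 to 3, 1.29%, 0.0834% and 0.0618% in Blinc1-Het replicates 1 to 3, and 0.0644%, 0.0285% and 0.0391% in WT replicates 1 to 3. That ratio still ranged 58.3-fold. Against Cel the ratio ranged 69.3-fold, with 6.80% and 6.98% in Blinc1-KO replicates 2 and 3, 6.79% in Blinc1-Het replicate 1, and 0.101% to 0.369% in the other 6 libraries. These ratios show only that Pla2g1b and the enzyme transcripts differed unequally.

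**Figure D2:**
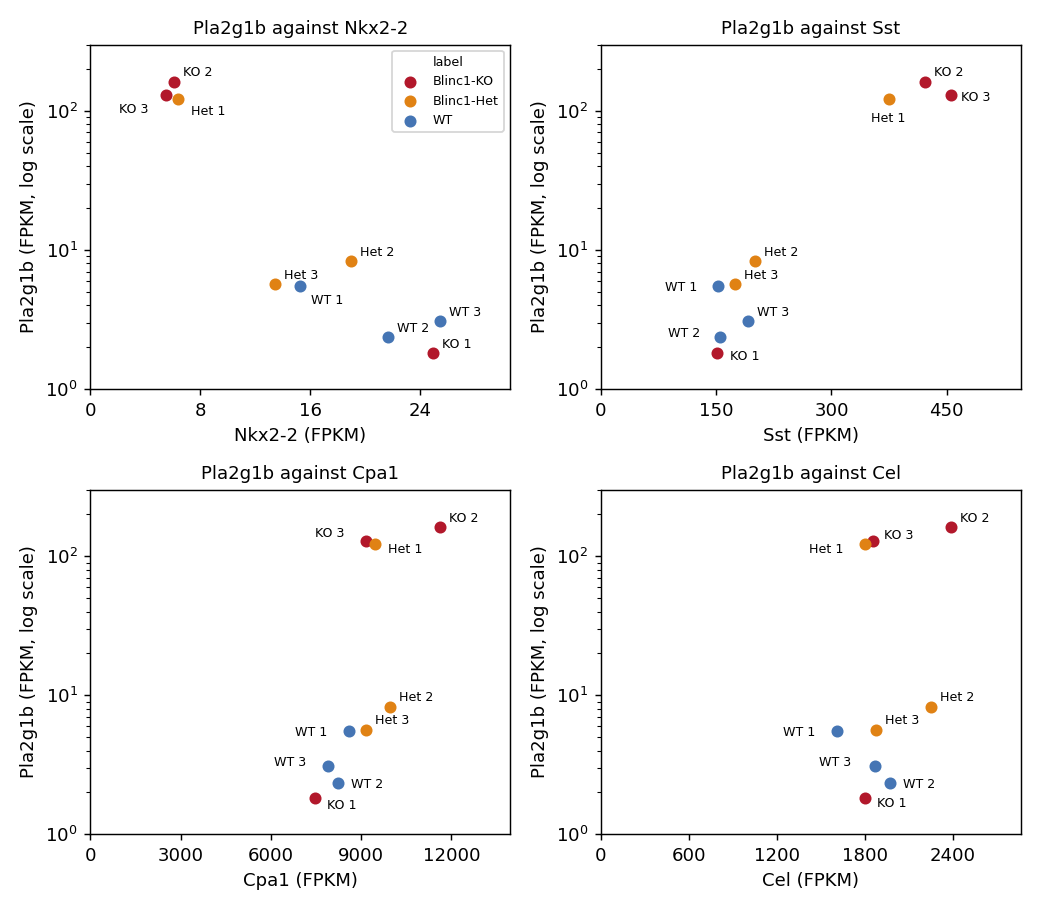
Pla2g1b FPKM on a log scale (y axes) against the FPKM of Nkx2-2, Sst, Cpa1 and Cel (linear x axes), 1 point per library, coloured by genotype label. The 3 libraries at 122 to 162 FPKM of Pla2g1b sit at the low end of Nkx2-2 and the high end of Sst, while in Cpa1 and Cel 2 of them lie among the other libraries and Blinc1-KO replicate 2 is highest.

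Clps was at 12218, 23337 and 18120 FPKM in Blinc1-KO replicates 1 to 3, 14814, 17547 and 16784 FPKM in Blinc1-Het replicates 1 to 3, and 13018, 13728 and 15475 FPKM in WT replicates 1 to 3. The groups overlapped, and Blinc1-KO minus WT was 0.30 (SE 0.21) on the log2 scale with an adjusted p of 0.64 by limma. It was 0.55 without Blinc1-KO replicate 1 and 0.084 without Blinc1-KO replicate 2. Pnlip stood at 1.53 ± 0.54 FPKM in Blinc1-KO and 0.90 ± 0.25 FPKM in WT (SD, n = 3 each), a log2 difference of 0.40 (SE 0.18) with an adjusted p of 0.58 by limma. It was at 0.988, 2.07 and 1.53 FPKM in Blinc1-KO replicates 1 to 3, and its difference was not recomputed without libraries. Pnliprp2, a lipase-related protein gene, was at 68.7 ± 15.3 FPKM in Blinc1-KO and 70.1 ± 5.34 FPKM in WT, with an adjusted p of 0.94 by limma. Pnliprp1 could not be tested because 2 libraries, Blinc1-KO replicate 2 and Blinc1-Het replicate 2, carried no value for it; the other 7 lay between 19074 and 24458 FPKM.

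Over all 13306 genes tested by limma, 0 (0%) passed an adjusted p of 0.05 in Blinc1-KO minus WT, with 1117 (8.39%) under an unadjusted p of 0.05. The matching figures were 0 (0%) and 522 (3.92%) for Blinc1-Het minus WT, and 0 (0%) and 296 (2.22%) for Blinc1-KO minus Blinc1-Het. Without both Blinc1-KO replicate 1 and Blinc1-Het replicate 1, the counts past the adjusted threshold were 4, 5 and 5 in that order. Of the 32 digestive enzyme genes listed, 24 were tested, and 0 passed the adjusted threshold in any of the 3 comparisons. In Blinc1-KO minus WT, 18 were above 0 and 6 below, beside 41.5% above 0 over all genes tested. Their median was 0.20, against -0.03 for all genes tested, and their values ran from -0.32 to 0.76. Of the 24, 0 were higher or lower at an unadjusted p of 0.05, beside 2.6% and 5.79% of all genes tested. In Blinc1-Het minus WT, 16 were above 0 and 8 below, beside 42.9% above 0 over all genes tested, and 1 was higher at an unadjusted p of 0.05, beside 1.35% of all genes tested. In Blinc1-KO minus Blinc1-Het, 17 were above 0 and 7 below, beside 44.7%, and 0 were higher or lower at an unadjusted p of 0.05, beside 1.26% and 0.969%.

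Among the proteases, Cela1 was at 2186 ± 874 FPKM in Blinc1-KO and 1420 ± 95.6 FPKM in WT (SD, n = 3 each), a log2 difference of 0.54 (SE 0.25) with an adjusted p of 0.58 by limma. Try10, one of the trypsin genes, was at 1018 ± 266 FPKM in Blinc1-KO and 775 ± 84.4 FPKM in WT, a log2 difference of 0.36 (SE 0.18) with the same adjusted p of 0.58. Without Blinc1-KO replicate 1 the differences were 0.84 for Cela1 and 0.58 for Try10, and without Blinc1-KO replicate 2 they were 0.25 for Cela1 and 0.19 for Try10. Trypsin and amylase genes have near-identical copies, and their values are uncertain where reads could be split among them. The highest library was Blinc1-KO replicate 2 for 16 of the 24 enzyme genes, and the lowest was Blinc1-Het replicate 1 for 7. The matching shares over all genes tested were not counted, so whether these counts are particular to enzyme genes was not tested. Cela1 was the only one of the 24 (4.17%) with the same 3 libraries highest as Pla2g1b, beside 374 of the 13305 other genes tested (2.81%). The span between the highest and lowest library was 0.54 to 2.43 on the log2(FPKM + 1) scale over the 24 enzyme genes, with a median of 0.96, and 5.86 for Pla2g1b. Across all genes tested the median span was 0.35, and Pla2g1b ranked 8 of 13306.

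**Figure D3:**
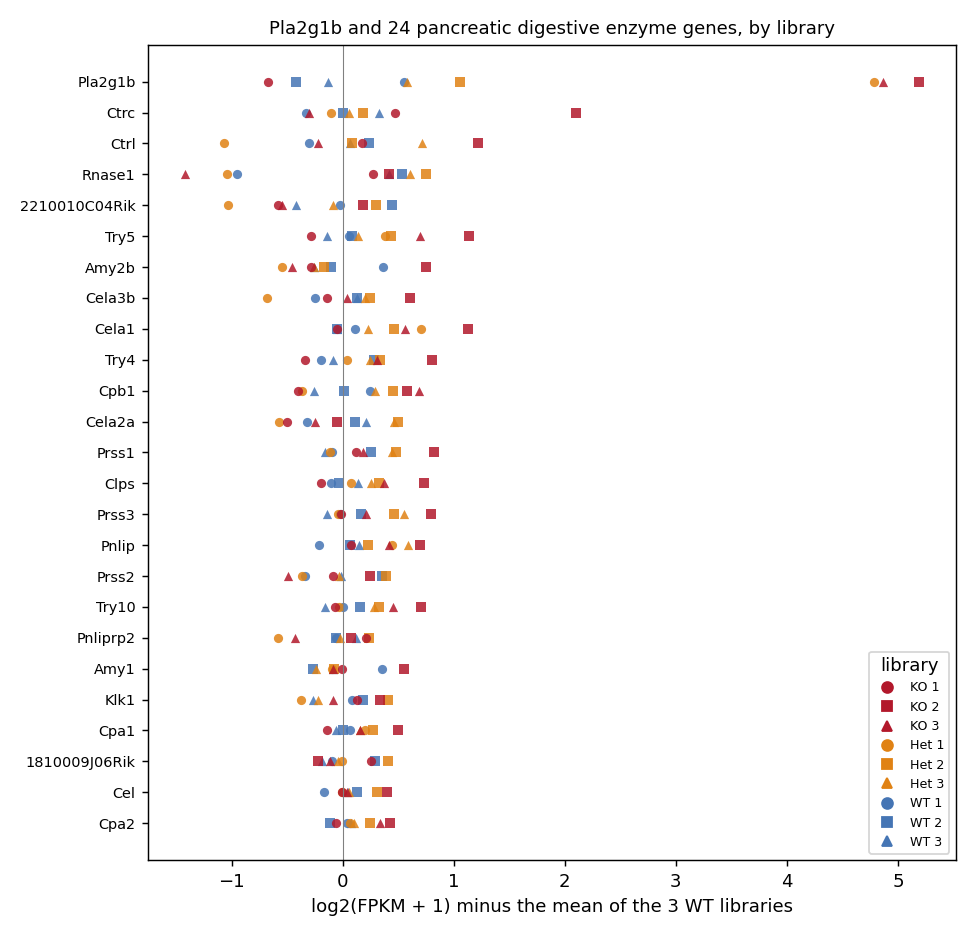
Level of Pla2g1b and of the 24 tested digestive enzyme genes (rows, ordered by span below Pla2g1b) in each library, as log2(FPKM + 1) minus the mean of the 3 WT libraries (x axis); colour gives the genotype label and shape the replicate. Pla2g1b spans 5.86, against at most 2.43 for the enzyme genes, whose widest spread (Ctrc) has Blinc1-KO replicate 2 as its highest library.

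Of 10 acinar regulators, none passed the adjusted threshold. In Blinc1-KO minus WT, 9 were above 0, beside 41.5% over all genes tested, and 1 was below, with a median of 0.18. At an unadjusted p of 0.05 there were 4 higher and 1 lower, beside 2.6% higher and 5.79% lower over all genes. In the same comparison 5 of 5 mesenchyme markers were below 0 (median -0.36), 2 of them lower at an unadjusted p of 0.05, and 4 of 4 leukocyte markers were below 0 (median -0.17), 1 of them lower at that p, with none past the adjusted threshold. The mesenchyme markers summed to 227 to 359.9 FPKM in Blinc1-KO, 276 to 335 FPKM in Blinc1-Het and 304 to 442 FPKM in WT libraries, and their part in the acinar values was not tested. Ptf1a was at 85.2, 118 and 103 FPKM in Blinc1-KO replicates 1 to 3, at 92.2, 101 and 83.9 FPKM in Blinc1-Het replicates 1 to 3, and at 74.4, 67.6 and 85.3 FPKM in WT replicates 1 to 3. The lowest Blinc1-KO library and the highest WT library of Ptf1a nearly coincided, and the log2 difference was 0.42 (SE 0.13) with an adjusted p of 0.58 by limma. Gata6, a zinc finger factor of acinar differentiation, was at 23.1 ± 2.33 FPKM in Blinc1-KO and 27.2 ± 1.27 FPKM in WT (SD, n = 3 each), with an adjusted p of 0.58. Rbpjl, the acinar form of the PTF1 subunit, was at 119, 179 and 256 FPKM in Blinc1-KO replicates 1 to 3, at 180, 217 and 172 FPKM in Blinc1-Het replicates 1 to 3, and at 167, 117 and 158 FPKM in WT replicates 1 to 3. Its 3 lowest libraries were those of Pla2g1b, and Blinc1-Het replicate 2, low in Pla2g1b, was second in Rbpjl. Of the 13 genes of granule membrane and accessory proteins 10 were tested, with 6 above 0 and 4 below and none past the adjusted threshold. The most abundant, the trypsin inhibitor gene Spink3, was at 1595 to 2099 FPKM in Blinc1-KO, 1807 to 2080 FPKM in Blinc1-Het and 1732 to 1991 FPKM in WT libraries.

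No other tested phospholipase A2 gene had the same 3 libraries highest as Pla2g1b, beside 2.81% of the other genes tested. Of 25 genes listed with the family besides Pla2g1b, among them the receptor gene Pla2r1, 12 were tested and 0 passed the adjusted threshold in any comparison. In Blinc1-KO minus WT, 5 were above 0 and 7 below, with a median of -0.05, beside 41.5% above 0 over all genes tested. At an unadjusted p of 0.05, 1 was lower and 0 were higher, beside 5.79% and 2.6% of all genes tested. The spans of the 12 were 0.19 to 0.87 on the log2 scale. Among the 10 other secreted enzymes, 7 were under 1 FPKM in every library. The secreted enzyme gene Pla2g12a was the most abundant family member outside the high Pla2g1b libraries, at 64.7 to 72.8 FPKM in Blinc1-KO, 70.0 to 74.0 FPKM in Blinc1-Het and 66.8 to 72.7 FPKM in WT libraries. The other 2, Pla2g2f and Pla2g2d, stayed between 5.29 and 7.13 FPKM and between 1.48 and 3.52 FPKM over the 9 libraries.

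Among the intracellular and remaining members, Pla2g6, a calcium-independent enzyme gene, was at 14.5 to 17.3 FPKM, and Pla2g4a, which encodes the cytosolic enzyme that releases arachidonic acid, at 3.94 to 6.16 FPKM over the 9 libraries. Pnpla2, the adipose triglyceride lipase gene, was at 14.5 to 20.5 FPKM, Pnpla8 at 12.5 to 14.7 FPKM and Pnpla6 at 6.65 to 7.96 FPKM. Pla2g16 lay at 8.66 to 15.7 FPKM, Pla2g4b at 1.32 to 2.96 FPKM and Pla2g7, the platelet-activating factor hydrolase gene, at 1.71 to 3.13 FPKM. Pla2g15, the lysosomal enzyme gene, was at 5.96 ± 1.19 FPKM in Blinc1-KO and 7.54 ± 0.16 FPKM in WT (SD, n = 3 each), a log2 difference of -0.31 (SE 0.13) with an adjusted p of 0.58 by limma. Without Blinc1-KO replicate 2 it was -0.18. The receptor gene Pla2r1 was at 0.356 to 0.574 FPKM in Blinc1-KO, 0.386 to 0.545 FPKM in Blinc1-Het and 0.520 to 0.664 FPKM in WT libraries, below the level needed for a test.

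The genes whose profile over the 9 libraries was most like that of Pla2g1b were ranked among 742 genes with a span of at least 1 on the log2 scale, by the mean gap between profiles standardised to a mean of 0 and an SD of 1. Sst was nearest (mean gap 0.16 SD), followed by Tm4sf4 (0.23), Nkx6-2 (0.29), Cela1 (0.30), Vwa2 (0.33), Serpina1c (0.33), Anxa13 (0.34) and Serpina1a (0.38). Tm4sf4 encodes a tetraspan membrane protein, Vwa2 an extracellular matrix protein, Anxa13 an annexin, and the Serpina1 genes are near-identical copies of the alpha-1-antitrypsin gene, between which reads could be split. Serpina1a is also one of the liver markers. Nkx6-2, a homeobox gene, was at 1.87, 33.7 and 37.5 FPKM in Blinc1-KO replicates 1 to 3, at 40.1, 12.3 and 9.66 FPKM in Blinc1-Het replicates 1 to 3, and at 8.79, 1.64 and 2.86 FPKM in WT replicates 1 to 3. It had the same 3 highest and the same 3 lowest libraries as Pla2g1b, with a 24.5-fold range, and its 3 middle libraries stood clear of both ends.

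Nkx2-2 was nearest to the mirror image of the Pla2g1b profile (mean gap 0.20 SD), followed by Tmem163 (0.24), G6pc2 (0.25), Chgb (0.28) and Ins1 (0.29). Several of these belong to endocrine cells: G6pc2 encodes the islet glucose-6-phosphatase, Chgb the granule protein chromogranin B and Ins1 insulin. Ins1 was at 627, 235 and 233 FPKM in Blinc1-KO replicates 1 to 3, at 315, 606 and 481 FPKM in Blinc1-Het replicates 1 to 3, and at 422, 722 and 683 FPKM in WT replicates 1 to 3. It has a close paralog, Ins2, so its reads may be split. The 8 endocrine markers summed to 2830 to 4576 FPKM in Blinc1-KO, 2986 to 4557 FPKM in Blinc1-Het and 3723 to 5279 FPKM in WT libraries. The 3 lowest sums were in the 3 libraries high in Pla2g1b, and Ins2 was the most abundant marker in every library. Ins1, Ins2, Ghrl, Chga and Neurog3 each had their 3 lowest levels in those 3 libraries. Gcg did not, Sst was highest in them, and Ppy was highest in Blinc1-KO replicates 2 and 3. The share of all genes tested with their 3 lowest levels in those libraries was not counted. The part of cell composition in the Pla2g1b levels was not tested.

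**Figure D4:**
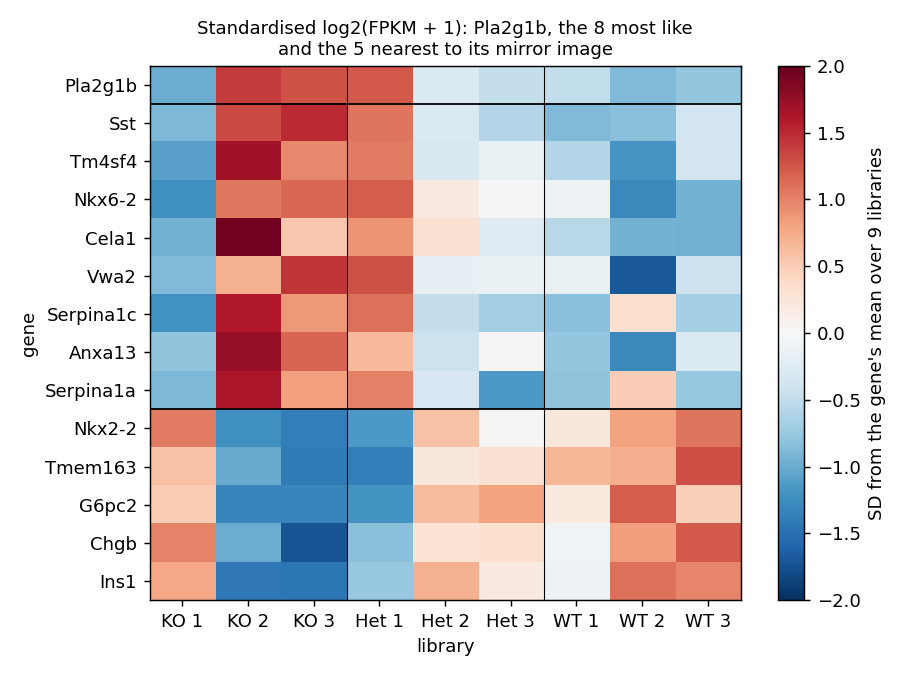
Standardised log2(FPKM + 1) of Pla2g1b, the 8 genes most like it and the 5 nearest to its mirror image (rows) in the 9 libraries (columns), in SD from each gene's mean (colour). Blinc1-KO replicates 2 and 3 and Blinc1-Het replicate 1 share a direction in every row, and Blinc1-KO replicate 1 lies on the opposite side in every row.

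The genes next to Pla2g1b on chromosome 5 varied less between libraries. All 23 genes within 0.5 Mb were tested, and 0 passed the adjusted threshold in any comparison. In Blinc1-KO minus WT, 11 were above 0, beside 41.5% over all genes tested, and 12 were below, with a median of -0.01. Their spans were 0.13 to 0.85 on the log2 scale, with a median of 0.28. At an unadjusted p of 0.05, 2 of 23 (Pop5 and Cox6a1) were higher and 1 of 23 (Gcn1l1) was lower, beside 2.6% higher and 5.79% lower over all genes tested. Pop5 and Cox6a1 also had the same 3 libraries highest as Pla2g1b, beside 2.81% of the other genes tested. The nearest gene, Sirt4 (a mitochondrial sirtuin gene, 3.293 kb after Pla2g1b), was at 6.17 ± 0.46 FPKM in Blinc1-KO and 6.33 ± 0.17 FPKM in WT (SD, n = 3 each), with an adjusted p of 0.91 by limma. Msi1, an RNA-binding protein gene 12.064 kb before it, was at 5.21 ± 1.09 FPKM in Blinc1-KO and 5.75 ± 0.61 FPKM in WT, with an adjusted p of 0.73. Pxn, the paxillin gene 31.985 kb after it, was at 25.2 ± 2.54 FPKM in Blinc1-KO and 28.0 ± 1.44 FPKM in WT, with an adjusted p of 0.58. Without Blinc1-KO replicate 2 the log2 differences of Msi1, Pxn and Gcn1l1 were -0.004, -0.071 and -0.11, against -0.13, -0.15 and -0.17 with it, and that of Msi1 was -0.26 without Blinc1-KO replicate 1, -0.20 without WT replicate 2 and -0.068 without WT replicate 3. Cox6a1, a gene of a cytochrome c oxidase subunit 117.311 kb before it, was at 759.6 ± 40.9 FPKM in Blinc1-KO and 688 ± 24.6 FPKM in WT, with an adjusted p of 0.58.

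**Figure D5:**
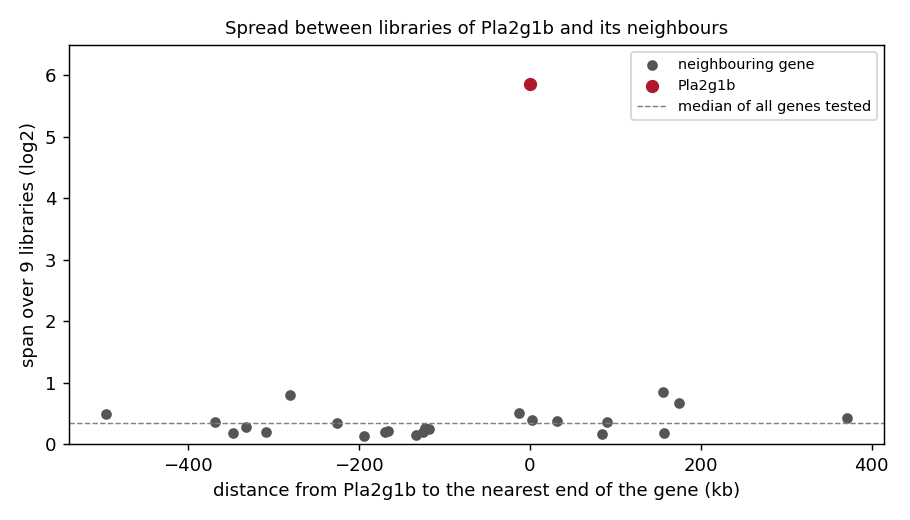
Span between the highest and the lowest of the 9 libraries on the log2(FPKM + 1) scale (y axis) for Pla2g1b and the 23 tested genes within 0.5 Mb, by distance from Pla2g1b to the nearest end of each gene in kb (x axis); the dashed line is the median of all genes tested. The neighbours lie between 0.13 and 0.85, and Pla2g1b at 5.86.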

How the data were processed

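Total RNA from whole e15.5 pancreas was sequenced in 9 libraries, per the labels' protocols. The deposited values are FPKM with confidence bounds, per the file headers, and the submitters' processing notes name CASAVA 1.8.2, TopHat 2.0.4, Cufflinks, DESeq and mm9; no source used here gives the gene annotation or strand setting. Counts were not used here, so limma 3.58.1 in R 4.3.3 replaced a count test: log2(FPKM + 1), intensity trend, all 9 libraries in 1 fit, two-sided, Benjamini-Hochberg over the 13306 genes at 1 FPKM or more in at least 3 libraries. The fit was checked on simulated data whose spread in every group was taken from the WT libraries. A wider spread within Blinc1-KO or Blinc1-Het was not covered by that check. Loci without a value for excess data were treated as missing, which removed 4 symbols; a symbol with several loci was summed. Implied fragments take the upper bound as 2 standard errors of a count above the value.

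Pla2g1b, the comparison genes and the gene lists were chosen with earlier results of these data known. Named genes were Pla2g1b and its 4 comparison genes, all lipid digestion genes, up to 3 members of each other list by mean and up to 3 by p, phospholipase A2 genes at a mean of 1 FPKM or more, 2 neighbours on each side, and the 8 most like and 5 mirror profiles. Promoter windows were read at the deposited start, not the RefSeq one, over 250 bases; TATAAA was added after seeing the window. Alternatives were other pseudocounts, no filter on low values, no intensity trend, libraries shifted to a common median, sex, the replicate block and libraries left out.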

Additional observations from a re-analysis of the deposited data

How the results depend on the processing

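The Pla2g1b difference ranged over 2.10 to 5.03 for Blinc1-KO minus WT, 0.82 to 2.92 for Blinc1-Het minus WT and -0.038 to 2.89 for Blinc1-KO minus Blinc1-Het when 1 library was left out. Only the last changed sign, without Blinc1-KO replicate 2, and it was 4.21 without both Blinc1-KO replicate 1 and Blinc1-Het replicate 1. Those 2 libraries were picked out by their Pla2g1b, Nkx2-2 and Sst values. With them left out, 4 genes passed the adjusted threshold in Blinc1-KO minus WT, 5 in Blinc1-Het minus WT and 5 in Blinc1-KO minus Blinc1-Het. Leaving out 1 library gave 0 to 1, 0 to 7 and 0 to 4 genes in the same order of comparisons, with 7 without Blinc1-KO replicate 1. A pseudocount of 5 and the replicate block each gave 1 gene in Blinc1-Het minus WT. Sirt4 in Blinc1-KO minus WT was 0.018 without Blinc1-KO replicate 3 and -0.073 without Blinc1-KO replicate 1 and Blinc1-Het replicate 1. The causes were not tested. No digestive enzyme, phospholipase A2 or neighbouring gene passed under any of these alternatives. With the replicate block, the Pla2g1b differences stayed at 3.13, 2.14 and 0.99, with an SE of 1.76 each. Deviations from the group means of same-numbered libraries correlated at -0.19 to 0.29, and at 0.047 to 0.29 for Blinc1-KO with Blinc1-Het. Differently numbered libraries were not compared, so whether the numbers pair the samples was not settled. Sst and Nkx2-2 were nearest to the profile and to its mirror under each pseudocount and filter. The rest of the named lists changed in part. A pseudocount of 0.1 kept 5 of the 8 most like and 3 of the 5 mirror genes. A pseudocount of 5 kept 7 of 8 and 3 of 5, and no filter kept all. At 3 libraries a group, and about 17 fragments in the lowest library, small differences in Pla2g1b were not detectable.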

Other observations

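Besides Pla2g1b, 40 of the 13305 other genes tested had the same 3 libraries highest and the same 3 lowest, and 5 of them had a span of at least 1 on the log2 scale: Nkx6-2, Nepn, Vwa2, Cela1 and H2-K1. These were chosen after their values were seen. The Pla2g1b bounds of WT replicates 1 and 3 overlapped, so its set of 3 lowest libraries is uncertain, here and for the mirror order. Nepn, which encodes nephrocan, was at 1.05, 4.17 and 5.13 FPKM in Blinc1-KO replicates 1 to 3, at 5.31, 2.03 and 4.07 FPKM in Blinc1-Het replicates 1 to 3, and at 3.45, 0.952 and 1.95 FPKM in WT replicates 1 to 3. H2-K1, a class I histocompatibility gene, owed its span to Blinc1-KO replicate 2 at 64.7 FPKM, against 31.7 to 39.6 FPKM in the other 8 libraries.

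The mirror order of sets was found for 74 genes, 16 of them with a span of at least 1. They included Ghrl, the gene of ghrelin, at 176, 91.6 and 78.4 FPKM in Blinc1-KO replicates 1 to 3, at 77.0, 127 and 114 FPKM in Blinc1-Het replicates 1 to 3, and at 116, 141 and 219.96 FPKM in WT replicates 1 to 3. Slc30a8, the zinc transporter gene of insulin granules, was at 5.48, 2.96 and 2.14 FPKM in Blinc1-KO replicates 1 to 3, at 1.89, 5.38 and 3.90 FPKM in Blinc1-Het replicates 1 to 3, and at 4.59, 6.77 and 6.83 FPKM in WT replicates 1 to 3.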
